A study of Mus musculus with 26 samples.

Results

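E proteins and Id inhibitors are the transcription factors and antagonists described here across cultured mouse pro-B cells that kept or lost Brg1. The members are the E protein genes Tcf3, Tcf4 and Tcf12 and the Id genes Id1, Id2 and Id3, chosen by name, 6 genes of the 17846 listed in both deposited expression tables. Brg1 is the ATPase of the BAF chromatin remodelling complex and is encoded by Smarca4. RNA was measured in 10 libraries of C57/Bl6 cells in 4 groups, and the other 16 samples of the series, of other assays, were not analysed here. In the deletion experiment, B220+ bone marrow cells grew for 7 days with IL7 and SCF and received 0.3 µM tamoxifen over the last 60 hours. Its control group was Brg1+/+ with ER-Cre and its deleted group Brg1F/F with ER-Cre, with 2 libraries each, so both groups carried the Cre and received tamoxifen. In the knockdown experiment, Rag1-/- pro-B cells grown in the same cytokines received retrovirus for a control shRNA or a Brg1 shRNA on culture days 3 and 4, and infected cells were enriched on hCD25 magnetic beads, giving 3 libraries a group. No label ties a library to a mouse, so p-values measure only the spread between these libraries.

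E proteins are helix-loop-helix transcription factors that pair with each other or with tissue-restricted partners and bind short DNA motifs called E-boxes. Id proteins carry the helix-loop-helix but no basic DNA-binding region, so an Id bound to an E protein keeps it off DNA, and the balance between both families sets E protein activity. In early B cells the product of Tcf3 is needed to start the B lineage program together with Ebf1, while Id2 is known for innate lymphoid, dendritic and other lineages and Id3 for lymphocyte checkpoints. Tcf4 is best known as the factor of plasmacytoid dendritic cells, and Tcf12 encodes HEB.

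Id2 had the largest difference of the 6 genes, in the knockdown, so its promoter is shown. The sequence is the 250 bases before the RefSeq start of Id2 on the minus strand of GRCm38.p6 (chr12:25096093-25096342), written 5′ to 3′, with the single E-box of the form CAGCTG in capitals.
Id2 promoter: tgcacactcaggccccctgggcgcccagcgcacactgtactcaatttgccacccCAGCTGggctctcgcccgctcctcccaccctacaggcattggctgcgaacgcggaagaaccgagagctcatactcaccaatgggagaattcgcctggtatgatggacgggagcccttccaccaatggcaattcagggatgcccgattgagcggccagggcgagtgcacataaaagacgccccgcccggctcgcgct
The E-box begins 196 bases before the start. CAGCTG reads the same on both strands and was present in 16.3% of the 32851 RefSeq promoter windows of the same length (250 bases before to 50 after the start), and the general E-box CANNTG in 72.3%. The Id3 window held no CANNTG on either strand. The Tcf3 window held 1 E-box, CACTTG, a form that with its reverse complement was found in 13.6% of all windows. Each of the 3 Tcf12 windows held at least 1 E-box, and 1 of them held CAGCTG as in Id2. These matches describe letters in the windows and not bound sites. Windows for Id1 and Tcf4 were not used here.

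The depleted gene was checked first. Smarca4 averaged 17898 normalized reads in control and 6067 in deleted cells in the authors' deposited table, and so fell by 1.56 on the log2 scale (adjusted p 0.0008). In the knockdown, the authors' deposited table gave 13340 and 6743 normalized reads, and Smarca4 fell by 0.98 on the log2 scale (adjusted p 0.0472). Smarca4 RNA thus remained in both depleted groups, and the labels do not give which exons the deletion removes. All 14 pro-B cell markers checked, among them Pax5 and Ebf1, were listed in both tables. Library depths were estimated and not counted. In the deletion experiment they came to about 8793532 to 11574720 reads, from the most even split of each group mean into libraries. In the knockdown they came to about 5201377 to 11050903, the summed group mean multiplied by the size factor of each library.

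All 6 genes were detected in every group. Levels between genes are compared per length, as normalized reads divided by the authors' exon length, whose definition is not given in the sources used here, and scaled to a total of 1000000 over all listed genes of a group. Tcf3 stood highest, with a level of 504 in control and 658 in deleted cells, and of 428 and 483 in Rag1-/- cells with control and Brg1 shRNA. Id3 came next, with levels of 118, 174, 102 and 129 in the same order of groups. Tcf4 followed with 63.3, 79.5, 46.3 and 53.6, and Tcf12 with 37.1, 38.2, 27.3 and 31.2. Id2 had levels of 27.8, 39.9, 7.11 and 20.7, and Id1 was lowest with 5.80, 3.87, 2.46 and 1.59. The order was Tcf3, Id3, Tcf4, Tcf12, Id2 and Id1 in 3 groups, and in deleted cells Id2 stood just above Tcf12, a gap smaller than the spread of Id2 between the 2 deleted libraries (levels of 55.3 and 24.6). The 2 experiments were normalized separately, so levels across them are set side by side without a test.

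**Figure D1:**
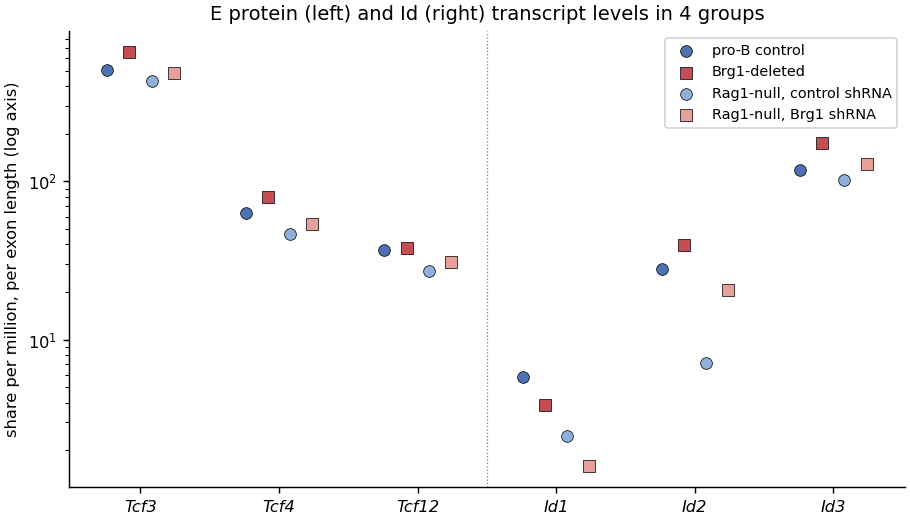
Level of each E protein gene (left) and Id gene (right) in the 4 groups, as reads per exon length scaled to 1000000 a group, on a log axis, 1 point for each group mean of the authors' deposited tables with no error bar. Tcf3 lies highest in each group, between 428 and 658, and Id1 lowest, between 1.59 and 5.80.

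Within the 2 families, a single gene carried most of the transcript level per length. Tcf3 made up 83.4% of the summed E protein level in control and 84.8% in deleted cells, and 85.3% and 85.1% in Rag1-/- cells with control and Brg1 shRNA. Id3 made up 77.9% and 79.9% of the summed Id level in the deletion experiment, and 91.4% and 85.3% in the knockdown. The ratio of the summed Id level to the summed E protein level was 0.251 in control and 0.281 in deleted cells, and 0.223 and 0.266 in the knockdown experiment. Tcf3 exceeded Id3 by a ratio of 4.26 in control and 3.78 in deleted cells, and of 4.19 and 3.75 in the knockdown. As ratios of group means, to which no test was applied, both Id to E protein ratios were larger in the Brg1-depleted group. In the deletion experiment the ratio was also taken apart by library, with the most even split of the E protein means. It was 0.163 in the deeper and 0.332 in the shallower control library, and 0.289 and 0.270 in the deleted ones. In that split the direction rests on 1 control library, since without the deeper control library the control ratio was the larger. Other splits were possible and were not tried, and Tcf3 in deleted cells had another split almost as even. All of these values depend on dividing by exon length, which for Tcf12 is 15529 bases against 1160 for Id1. If that length joins exons of several transcripts, the levels of Tcf4 and Tcf12 are too low. In normalized reads not divided by length, the order was Tcf3, Tcf4, Tcf12, Id3, Id2 and Id1 in each group, and Tcf3 made up 60.1% to 63.6% of the E protein reads. They concern RNA and not protein.

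No E protein gene and no Id gene passed an adjusted p of 0.05 in either experiment. In the authors' deposited table for the deletion, 0 of the 6 members were called where 1.47% of all 19404 listed genes were (0.732% higher and 0.742% lower), and 0 of 6 had an unadjusted p under 0.05 where 9.52% of listed genes did. In the table for the knockdown, 0 of 6 members were called where 0.218% of 19719 listed genes were (0.177% higher and 0.0406% lower), and 1 of 6, Id2, had an unadjusted p under 0.05 where 2.74% did. The median log2 fold change of all listed genes was -0.0014 in the deletion table and -0.0028 in the knockdown table.

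The E protein genes had small differences. Tcf3 (ENSMUSG00000020167, chr10:80409514-80433647 on the minus strand of mm10), the main E protein gene of these cells, averaged 7669 normalized reads in control and 9408 in deleted cells in the authors' deposited table, and 5928 and 6231 in the knockdown. In the authors' deposited table this is 0.29 in log2 after deletion and 0.07 after knockdown, with an adjusted p of 1 in both. Tcf3 ranked at percentile 99.5 of the level of listed genes in the deletion table, and at percentile 99.2 in the knockdown table. Tcf4 (ENSMUSG00000053477) averaged 2923 and 3449 normalized reads in the authors' deposited table after deletion and 1943 and 2095 after knockdown, log2 fold changes of 0.24 and 0.11 with adjusted p of 1 in both. Tcf12 (ENSMUSG00000032228, chr9:71842688-72111871 on the minus strand) averaged 2173 and 2102 normalized reads and then 1455 and 1545 in the authors' deposited table, log2 fold changes of -0.05 and 0.09 with adjusted p of 1 in both. Tcf4 and Tcf12 carry a mark of the authors named confounded, which no source used here defines. The mark is common, on 9145 of the 19404 genes listed for the deletion and 9332 of the 19719 listed for the knockdown.

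The Id genes had larger differences in both directions, and these did not pass the test either. Id1 (ENSMUSG00000042745, chr2:152736251-152737410 on the plus strand), a target of BMP signals in many tissues, averaged 25.3 normalized reads in control and 15.9 in deleted cells in the authors' deposited table, and 9.77 and 5.88 in the knockdown. In log2 the difference of Id1 was -0.67 after deletion and -0.73 after knockdown in the authors' deposited table (adjusted p 1 in both). Id1 was the scarcest member, at percentile 39.7 of level in the deletion table. Id3 (ENSMUSG00000007872, chr4:136143497-136145755 on the plus strand), the main Id gene of these cells, averaged 798 and 1103 normalized reads in the authors' deposited table after deletion and 627 and 738 after knockdown. In log2 this is 0.47 after deletion and 0.23 after knockdown in the authors' deposited table (adjusted p 1 in both).

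Id2 (ENSMUSG00000020644, chr12:25093801-25096092 on the minus strand) had the widest gap between groups in the knockdown. It averaged 31.0 normalized reads with control shRNA and 83.8 with Brg1 shRNA in the authors' deposited table, 2.71-fold higher or 1.44 in log2. The unadjusted p was 0.001 and the adjusted p 0.286 in the authors' deposited table. A smaller p than that of Id2 was listed for 81 genes, 0.411% of the table. Adjusted over the listed genes the p of Id2 was 0.238, and over genes with a mean of at least 10 it was 0.146. After deletion, Id2 averaged 133 normalized reads in control and 180 in deleted cells in the authors' deposited table, 0.43 in log2 (unadjusted p 0.653, adjusted p 1). The sign of the log2 fold change was thus the same in both experiments for Tcf3, Tcf4, Id1, Id2 and Id3 and differed for Tcf12. Whether the Id2 difference itself differed between the experiments was not tested.

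**Figure D2:**
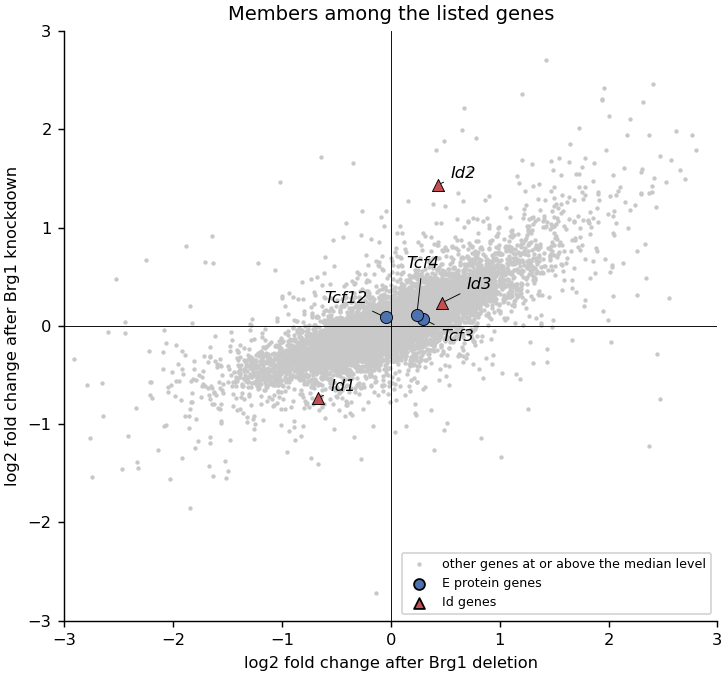
The authors' log2 fold change after Brg1 deletion (x axis) and after Brg1 knockdown (y axis), 1 grey point for each gene at or above the median level in the deletion table, with E protein genes as circles and Id genes as triangles. Genes beyond 3 on either axis are not drawn. Id2 lies at 0.43 and 1.44 and Id1 at -0.67 and -0.73, and the 3 E protein genes lie between -0.05 and 0.29 on both axes.

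The means of the deletion table could be taken apart into whole reads of its 2 libraries a group, because the lowest values of the table show what a read of each library was worth. These libraries, which cannot be matched to replicate numbers, are called deeper and shallower within their group. Reads of Id1, Id2 and Id3 came out with 1 solution in both groups. Id1 had 14.6 normalized reads in the deeper and 36.0 in the shallower control library, and 19.0 and 12.8 in the deeper and shallower deleted library. The groups of Id1 were interleaved, the deeper control library lying between the deleted ones and the shallower control library above both. Id2 had 34.1 normalized reads in the deeper and 232 in the shallower control library, and 249 and 110 in the deeper and shallower deleted library. Only the deeper control library was low for Id2, and the shallower control library lay between the deleted ones. Id3 had 563 and 1034 normalized reads in the deeper and shallower control library, and 1224 and 981 in the deeper and shallower deleted library. Here too the deeper control library was the low one, and the groups overlapped, since the shallower control library exceeded the shallower deleted library.

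The groups overlapped for all 3 Id genes, where they did not overlap for 48.1% of the 16755 genes recovered at a mean of at least 1. The control libraries of Id2 were 6.80-fold apart. Of 4388 control genes with a mean from 100 to 500 normalized reads, 35 (0.798%) had libraries more than 6-fold apart, and the median gene had libraries 1.20-fold apart. The control libraries of Id3 were 1.84-fold apart and those of Id1 2.46-fold apart. Per length, the summed Id level was 354 normalized reads per kb in the deeper control library, 791 in the shallower control library, and 896 and 646 in the deeper and shallower deleted library. Id2 made up 7.60% of that sum in the deeper control library, 23.1% in the shallower control library, and 21.9% and 13.5% in the deeper and shallower deleted library.

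The test over these recovered libraries used limma on log2 reads with adjustment over all 16755 genes. Id3 had a log2 difference of 0.52 (SE 0.32, 95% interval -0.29 to 1.34) and an adjusted p of 0.488. Id2 had a log2 difference of 0.89 (SE 0.94, 95% interval -1.48 to 3.26) and an adjusted p of 0.693. For Id1 the log2 difference was -0.54 (SE 0.60, 95% interval -2.06 to 0.97) with an adjusted p of 0.710. In this limma fit 0 of the 16755 genes (0%) passed an adjusted p of 0.05 and 2800 (16.7%) had an unadjusted p under 0.05, the latter including 0 of the 3 Id genes, while the authors' deposited table called 286 genes from these libraries. Without the shallower control library the log2 difference of Id2 was 2.27 with an adjusted p of 0.109 by limma and that of Id3 0.96 with an adjusted p of 0.185. Without the deeper control library Id2 was at -0.48 with an adjusted p of 0.814.

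The E protein genes had too many reads to be taken apart fully. Tcf12 had 1922 and 2282 normalized reads in the deeper and shallower deleted library, with 1 solution. Its control mean had 2 solutions, 2432 and 1913 or 496 and 3849. Tcf4 had 2 solutions in each group, the more even being 3129 and 2717 in the deeper and shallower control library and 3059 and 3839 in the deleted ones. Tcf3 had 6 solutions in control and 10 in deleted cells, the most even being 7105 and 8233, and 11026 and 7791. In deleted cells, 7608 and 11209 were almost as even. In these most even solutions the groups overlapped for all 3 E protein genes, but the choice among solutions was not tested. Of the 16755 genes recovered with 1 solution, 48.1% did not overlap, so overlap was common. That share leaves out these 3 genes, which had more than 1 solution in at least 1 group.

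In the knockdown table, which averages 3 libraries a group, Id1 could be taken apart fully and Id2 in part. Id1 had 9.29, 13.2 and 6.83 normalized reads in the control shRNA libraries, from the deepest to the shallowest, and 5.45, 7.00 and 5.18 in the Brg1 shRNA libraries. These are 9.77 ± 3.21 against 5.88 ± 0.981 normalized reads (SD, n = 3 each), and the groups overlapped, with a 2-sided exact permutation p of 0.2 where 0.1 is the smallest that 3 against 3 allows. For Id2, the control mean had 2 solutions, 38.9, 38.6 and 15.4 or 7.60, 44.3 and 41.0 normalized reads, so that no control library exceeded 44.3. The Brg1 shRNA mean had 34 solutions, and over these the highest of its libraries held from 101 to 241 normalized reads. All 3 Brg1 shRNA libraries lay above 44.3 in 7 of the 34 solutions. The 3 solutions whose libraries lay within 2-fold of each other were among these, the most even being 69.3, 103 and 78.8. A mean of 83.8 with that 2-fold limit forces this, so it is no support for separate groups. The same mean forces at least 1 Brg1 shRNA library above 44.3, and whether the other ones were too is not fixed by it.

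Other cell types of a bone marrow culture can carry Id2 and Tcf4, and in bulk RNA fewer cells of a type and less RNA per cell cannot be told apart. The summed mast cell and basophil markers (10 of 10 recovered) came to 289 and 890 normalized reads in the deeper and shallower control library and to 926 and 310 in the deeper and shallower deleted library. The 2 libraries with more of these markers were the 2 with most Id2. Mcpt4, a mast cell protease, had 9.75, 82.1, 95.9 and 11.6 normalized reads in the same order of libraries. Hdc, which makes histamine, had 27.3, 29.0, 21.6 and 9.30 and did not follow the order of Id2. The shallower control and deeper deleted libraries were the 2 highest, as for Id2, in 7 of the 10 genes. The share of all recovered genes with that order was not counted, so this count and those below have no background beside them. Of other recovered lists it held for 6 of 9 stromal and endothelial markers and 0 of 4 pro-B markers, of which 14 were listed. Among pathway lists described below, it held for 3 of 5 bHLH partners, 3 of 8 Egr and Nr4a genes and 5 of 24 BMP and TGF-β pathway genes. It held for 1 of 8 cofactors, 0 of 5 turnover genes, and 1 of 5 each of E protein targets, other helix-loop-helix repressors and zinc finger repressors. The order was thus not limited to markers of other cell types. None of the 10 mast cell and basophil markers was at 0 in any library, and their part in the Id2 values was not tested.

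The plasmacytoid dendritic cell markers gave a similar order. Summed over 9 of the 10 genes, they came to 1008 and 3186 normalized reads in the deeper and shallower control library and 4214 and 2325 in the deeper and shallower deleted library. Tlr9, an endosomal DNA sensor, had 140, 585, 1483 and 965 normalized reads, and Irf7, the interferon regulator, had 19.5, 108, 289 and 127. Tlr9 and Ly6d, which B lineage cells express as well, supplied most of the sum. Siglech, the surface lectin that defines these cells in mice, had 34.1, 54.0, 111 and 40.7 (Ly6d and Siglech were named after their values were seen). The 2 highest libraries were those of Id2 in 6 of the 9 genes. None of the 9 was at 0 in any library.

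Myeloid genes had lower means after deletion. All 17 listed of the 18 had a log2 fold change below 0 in the authors' deposited table, with a median of -0.71, where 49.9% of all listed genes were above 0. By the adjusted p 4 fell, where 0.742% of all listed genes did. Prtn3, a granule protease of neutrophil precursors, fell from 443 to 81.4 normalized reads in the authors' deposited table (adjusted p 1.15e-06), and Ctsg, which encodes another such protease, from 202 to 35.1 (adjusted p 2.74e-05). Ly6c2, a surface antigen of monocytes, fell from 440 to 58.4 normalized reads in the authors' deposited table (adjusted p 0.0024). The fourth was Elane, named here to complete the count (adjusted p 0.015 in the authors' deposited table). Over the 15 genes recovered, none at 0 in any library, the sum was 2318 in the deeper and 3696 in the shallower control library, and 1850 and 1148 in the deleted libraries in that order. The 2 highest libraries were those of Id2 in 8 of the 15 genes. S100a8, a neutrophil gene named after its values were seen, had 208, 13.0, 0.864 and 134 normalized reads, high where Id2 was low among the libraries of each group. The part of myeloid cells in the Id values was not tested.

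Innate lymphoid and T cell genes, the class for which Id2 is best known, were low. Their sum over 16 of 16 genes was 575 and 662 normalized reads in the deeper and shallower control library and 346 and 219 in the deleted ones, and Thy1 and Lck made up most of it in the control libraries. The 2 highest libraries were those of Id2 in 10 of the 16 genes. Cd3e, Tbx21 and Ncr1 were at 0 in the deeper control library, and Cd3g and Ncr1 in the shallower deleted library. In the authors' deposited table, Thy1 fell from 266 to 42.2 normalized reads after deletion (log2 fold change -2.65, adjusted p 1.07e-05) and Lck from 195 to 62.8 (log2 fold change -1.63, adjusted p 0.0236). After knockdown Thy1 averaged 204 and 136 (-0.58 in log2) and Lck, in the other direction, 273 and 427 (0.64 in log2). Neither passed the adjusted test there. Summed stromal and endothelial markers (9 of 12 recovered) came to 779 and 783 normalized reads in control and to 1913 and 1379 in deleted libraries, but Pecam1, an adhesion molecule that blood cells carry too, made up 89.8% to 97.4% of the sum in each library. Pecam1 averaged 725 and 1586 normalized reads in the authors' deposited table (adjusted p 0.0551). The other 8 genes summed to 31.2 and 80.1 normalized reads in control and to 84.7 and 36.0 in deleted libraries, and Kdr, an endothelial receptor among them, had 8.78, 15.0, 22.5 and 5.81. The part of these genes in the Id values was not tested.

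**Figure D3:**
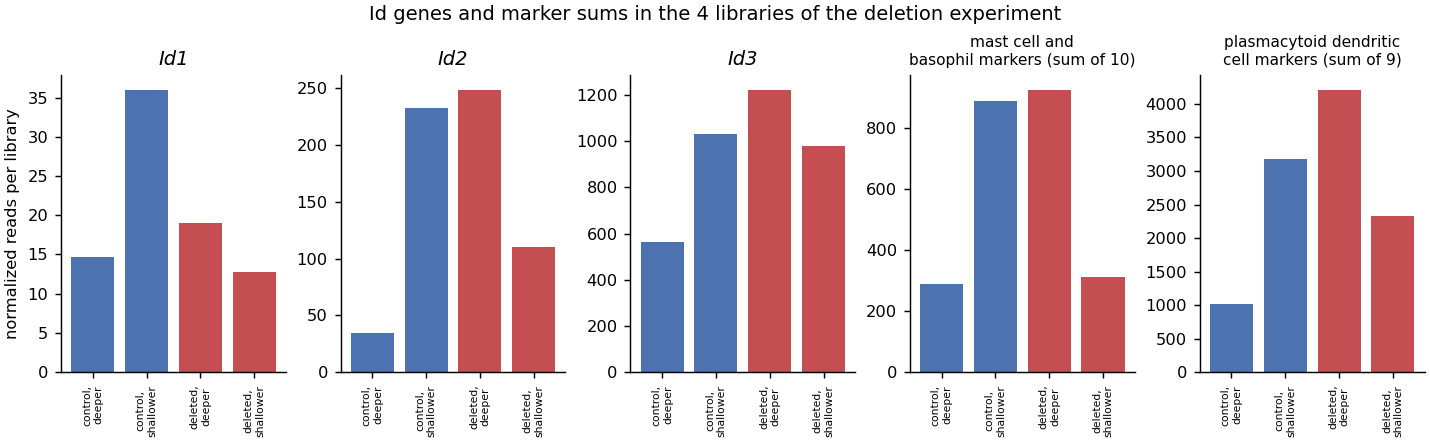
Normalized reads of Id1, Id2 and Id3 and summed markers of mast cells and basophils (10 genes) and of plasmacytoid dendritic cells (9 genes) in each recovered library of the deletion experiment, 1 bar for each library, control in blue and Brg1-deleted in red. For Id2 the deeper control library holds 34.1 and the other libraries 110 to 249, and the summed mast cell and basophil markers are highest, at 890 and 926, in the same 2 libraries as Id2.

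In the knockdown the same marker lists were given by group. Per length, mast cell and basophil markers (8 of 10 listed) summed to 24.1 per 1000000 with control shRNA and 20.9 with Brg1 shRNA, and Mcpt8 and Ms4a2 were not listed. Myeloid markers (17 of 18 listed) summed to 152 and 153, innate lymphoid and T cell genes (11 of 16) to 65.6 and 74.8, and stromal and endothelial markers (9 of 12) to 22.4 and 28.4. Only the plasmacytoid dendritic cell list (10 of 10) differed more, with 1120 and 1736 per 1000000, while 0 of its 10 genes passed an adjusted p of 0.05 and their median level was 3.91 and 3.76. Most of that sum was Spib (levels of 471 and 908) and Ly6d (537 and 658), both also expressed by B lineage cells and named after their values were seen. The other 8 genes summed to 112 and 170, and Siglech stood at 0.353 and 0.675. Tlr9 averaged 299 and 916 normalized reads in the authors' deposited table with an adjusted p of 1. The level of Id2 in the same groups was 7.11 and 20.7 per 1000000, and the part of the marker lists in it was not tested. On this scale the sum of each of these lists differed by a smaller factor between the groups than Id2 did. That does not hold for every single gene in them, as Tlr9 had levels of 25.1 and 82.7 and differed by a larger factor.

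Known E protein targets in early B cells mostly did not pass the test. Of 20 such genes, all listed, 1 rose and 0 fell after deletion by the authors' adjusted p, where 0.732% and 0.742% of all listed genes did. Their median log2 fold change was 0.17. After knockdown 0 of the 20 passed the test, where 0.218% of listed genes did, and their median was 0.01. The gene that rose was Cd79b, the signalling partner in the B cell receptor, from 8045 to 20542 normalized reads in the authors' deposited table (log2 fold change 1.35, adjusted p 0.0106). After knockdown Cd79b averaged 6277 and 10793 normalized reads in the authors' deposited table (0.78 in log2, adjusted p 0.909). The following targets were named after their values were seen. Ebf1, the factor that acts with Tcf3 at the start of the lineage, averaged 7809 and 7690 normalized reads in the authors' deposited table after deletion and 5715 and 5514 after knockdown. Igll1, a surrogate light chain gene and classical E protein target, averaged 5204 and 4305 in the authors' deposited table after deletion and 5547 and 5068 after knockdown. Dntt, which encodes terminal transferase, had the lowest log2 fold change of the list in both experiments, -1.92 and -1.35 in the authors' deposited table, with adjusted p of 0.163 and 1.

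Partners and cofactors of E proteins did not pass the test in either experiment. Of 10 cofactor genes 0 were called, with median log2 fold changes of 0.11 after deletion and 0.09 after knockdown. Of all listed genes 1.47% were called after deletion and 0.218% after knockdown. At these shares a list this short would seldom hold a called gene, so a count of 0 says little about it. The same holds for each list below. Kat2a, a histone acetyltransferase recruited by E proteins, averaged 972 and 521 normalized reads in the authors' deposited table after deletion (log2 fold change -0.90, adjusted p 0.210) and 754 and 645 after knockdown. Ep300, the acetyltransferase p300, averaged 2718 and 3980 normalized reads in the authors' deposited table after deletion with an adjusted p of 0.85, and 1712 and 2058 after knockdown. Most tissue-restricted bHLH partners were not listed, 5 of 20 being listed in the deletion table and 9 of 20 in the knockdown table, and 0 were called. Tal1, a partner in blood progenitors, averaged 22.3 and 23.0 normalized reads in the authors' deposited table after deletion and 6.55 and 3.10 after knockdown. Atoh8 averaged 7.95 and 3.61, and then 10.3 and 5.01, in the authors' deposited table.

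Other helix-loop-helix repressors held the largest log2 fold change among the pathway lists after deletion. Of 7 genes 5 were listed in each table (Id4 and Hey1 were not), 0 were called, and the median log2 fold changes were 0.44 and 0.26. Bhlhe41, a repressor that binds E-box-like sites, averaged 38.3 normalized reads in control and 427 in deleted cells in the authors' deposited table, 3.48 in log2 (unadjusted p 0.0293, adjusted p 0.497). In the knockdown it averaged 65.1 and 336 normalized reads in the authors' deposited table, 2.37 in log2 (adjusted p 1). The group means of Bhlhe41 were thus further apart than those of any member, and neither gap passed the test. Heyl, a Notch-responsive repressor, averaged 30.2 and 9.14 normalized reads in the authors' deposited table after deletion (log2 fold change -1.73, adjusted p 0.509) and 71.2 and 80.1 after knockdown. Of the 5 zinc finger repressors that compete for E-boxes 0 were called, with medians of -0.19 and 0.06, and Zeb2 averaged 2765 and 2428 normalized reads in the authors' deposited table after deletion and 1775 and 1852 after knockdown. Snai2, of the same family, had at most 5.95 normalized reads in any group of the authors' deposited table.

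Among signals upstream of Id genes, the BMP and TGF-β pathway was described by 26 genes, of which 25 were listed in each table. None was called, with medians of 0.11 after deletion and 0.03 after knockdown. An unadjusted p under 0.05 was listed for 2 of the 25 genes after deletion and 1 after knockdown, where 9.52% and 2.74% of all listed genes had it. Smad7, the feedback inhibitor of the pathway, averaged 537 and 1750 normalized reads in the authors' deposited table after deletion (log2 fold change 1.71, adjusted p 0.214). After knockdown Smad7 averaged 272 and 797 in the authors' deposited table (log2 fold change 1.55, adjusted p 1). Tgfbr2, the type II TGF-β receptor, averaged 1237 and 2306 normalized reads in the authors' deposited table after deletion (log2 fold change 0.90, adjusted p 0.209) and 802 and 1226 after knockdown. Both genes had a higher mean in the Brg1-depleted group of each experiment, and none of these gaps passed the adjusted test.

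Egr factors, which act upstream of Id3 after antigen receptor signals, had few reads. Of 9 Egr and Nr4a genes 8 were listed in the deletion table and 9 in the knockdown table, 0 were called, and the medians were 0.35 and 0.31. Egr3 averaged 7.92 and 42.9 normalized reads in the authors' deposited table after deletion (log2 fold change 2.44, adjusted p 0.0939) and 3.48 and 43.2 after knockdown (log2 fold change 3.64, adjusted p 1). Nab2, a corepressor of Egr factors, averaged 33.2 and 43.5 normalized reads in the authors' deposited table after deletion and 7.11 and 40.2 after knockdown. Genes of Id and E protein turnover (7 of 7 listed) had medians of -0.32 and -0.10, with 0 called. Usp1, the deubiquitinase that stabilises Id proteins, averaged 2985 and 2006 normalized reads in the authors' deposited table after deletion (adjusted p 0.761) and 2962 and 2719 after knockdown. Skp2, part of a ubiquitin ligase linked to E protein degradation, averaged 832 and 534 in the authors' deposited table after deletion (adjusted p 0.615) and 792 and 736 after knockdown.

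**Figure D4:**
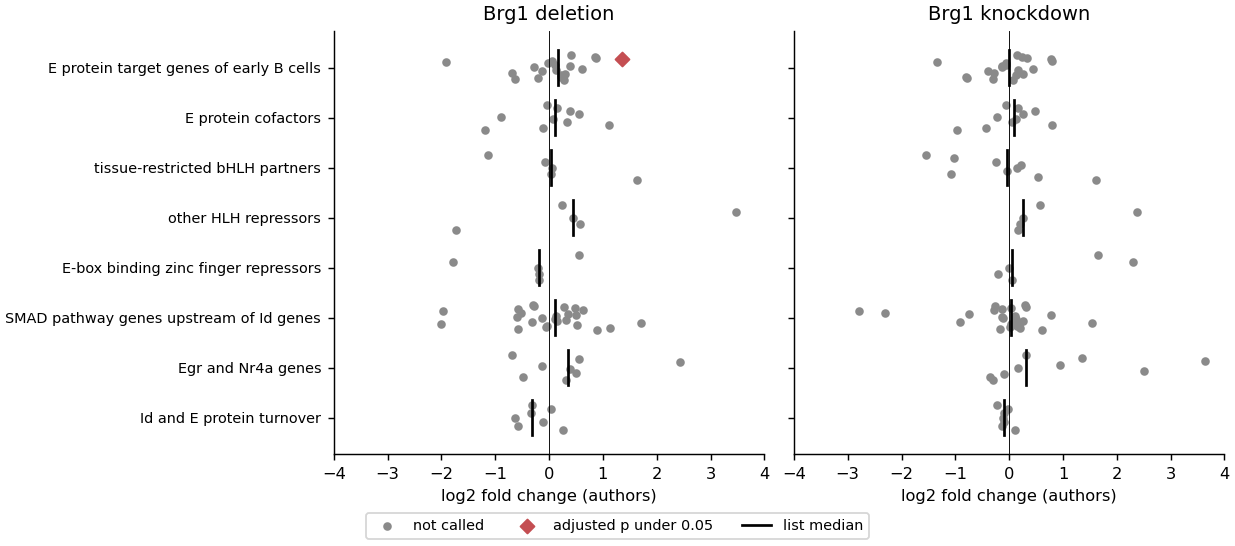
The authors' log2 fold change of each listed gene in 8 lists around the E protein and Id genes after deletion (left) and knockdown (right), with vertical bars at the list medians and a diamond for the gene with an adjusted p under 0.05. Only Cd79b is called, after deletion, and the medians lie between -0.32 and 0.44.

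Genes with a pattern like that of each member were found over the 4 group means, by the Euclidean distance of centred log2 levels among 8133 genes at or above the median level. With 4 points a gene the measure is coarse, and 3264 to 4204 genes lay within a distance of 0.5 of Tcf3, Tcf4, Tcf12 or Id3. The nearest genes were Rexo1 to Tcf3 (distance 0.0211), Vps18 to Tcf4 (0.0133), Por to Tcf12 (0.0283) and Wash to Id3 (0.0216). Within 0.5 of Id1 lay 18 genes, and within 0.5 of Id2 lay 5. The levels were centred and not scaled, so a gene that varies more between groups has fewer genes near it by construction. Candidates were also limited to genes at or above the median level, while Id1 stood at percentile 39.7 in the deletion table. These counts therefore do not show that the pattern of Id1 or Id2 is rare. The nearest to Id1 were Spp1 (distance 0.252), Hist1h2af (0.278) and Eps8 (0.306). The nearest to Id2 were Shisa5 (0.375), Rps27 (0.403) and Notch2 (0.459). The mean level of Id2 in control cells of the deletion experiment was 3.91 times that in Rag1-/- control cells. The same ratio was 2.36 for Id1 and 1.16 to 1.37 for the other 4 members. By library, Id2 had a level of 7.13 in the deeper and 48.5 in the shallower control library, against a mean of 7.11 in Rag1-/- control cells. The ratio of Id2 thus rests on the shallower control library. The remaining nearest genes were Cep110 (0.0246) and B3gnt1 (0.0273) for Tcf3, Zfp771 (0.0349) and Mier1 (0.0396) for Tcf4, Rbm15b (0.0358) and Bbx (0.0410) for Tcf12, and Vps72 (0.0245) and Sptan1 (0.0282) for Id3.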

How the data were processed

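RNA of 10 libraries in 4 groups, named from the sample titles, was measured by strand-marked mRNA sequencing per the labels' protocols, and 16 samples of other assays were not analysed here. The submitters' processing notes name CASAVA, RSEM, DESeq and mm10, with no versions. Per the file headers, each deposited table holds a signal in normalized reads (1 mean per group, read here as reads divided by a size factor), a log2 fold change, a signed linear fold given as a score, a p-value and a Benjamini-Hochberg adjusted p-value, all by the authors, and an exon length whose definition is not given in the sources used here. The deposited p-values of 0.0001 and above are rounded to 4 decimals. No table column of per-sample values was present, so the planned calls are those of the authors' tables at an adjusted p under 0.05.

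Each mean of the deletion table was resolved into whole reads of 2 libraries from the step that 1 read of each library adds. Within the rounding of the means (5e-05) plus 4 standard errors of the steps, all 19404 genes had a solution and 18333 (94.5%) had 1. Libraries of a group differed beyond sampling noise (chi-square per gene 19.5 in control, 25.9 in deleted). limma 3.58.1 in R 4.3.3 compared log2 of reads plus 0.5 for genes with 1 solution and a mean of at least 1, with no pairing. Knockdown means under 100 were resolved the same way for Id1 and Id2. Python 3.11.15 with pandas 2.3.3 and scipy 1.17.1 did the rest, and recovery and limma were tested on simulated data. Alternatives were other thresholds, adjustments, scalings, pseudocounts, level minimums and each library left out.

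The named genes are the 6 members, up to 3 called genes of each of 14 lists (or else the 2 with the smallest adjusted p) and the 3 genes most like each member. Genes outside this rule are said to be named after their values were seen, except Pax5, Cd3e, Cd3g, Tbx21 and Ncr1, which mark cell types, and genes named as not listed. The members and lists were chosen with earlier results of these data known. Promoter sequences come from RefSeq (GRCm38.p6), where Tcf3, Tcf12, Id2 and Id3 of the 6 members were matched.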

Additional observations from a re-analysis of the deposited data

How the results depend on the processing

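The count of called members stayed at 0 in both experiments under each threshold and adjustment tried. The minimum fold was asked for on top of the adjusted p, so it could not raise that count. In the limma fit of all libraries no gene passed under any scaling, level minimum or pseudocount, so the count of members was 0 there too. These limma settings therefore say nothing about the members in particular. All 36 alternative values of the members' log2 fold changes kept their sign. A pseudocount added to both means cannot reverse a sign. Scaling and centring moved all genes of an experiment by 1 constant, smaller than the smallest difference of any member in that experiment. The kept signs are thus no measure of stability between libraries. Scaling to equal totals moved the log2 fold changes by 0.03 after deletion and 0.04 after knockdown. Not divided by exon length, the ratio of summed Id to summed E protein reads was 0.0749 in control, 0.0868 in deleted, 0.0716 in control shRNA and 0.0838 in Brg1 shRNA cells, larger in the Brg1-depleted group of each experiment. The ratio per length was also taken with each library left out in turn, an alternative added after seeing the data. With the most even split of the E protein means it ranged from 0.163 to 0.332 in control and from 0.270 to 0.289 in deleted cells. In that split the control ratio was the larger without the deeper control library. Other splits were not tried, and Tcf3 in deleted cells had another split almost as even (7608 and 11209 normalized reads). Leaving out each library in turn, the limma log2 difference ranged from -1.18 to 0.093 for Id1, from -0.48 to 2.27 for Id2 and from 0.084 to 0.96 for Id3. Id1 reversed to 0.093 without the shallower control library, and Id2 to -0.48 without the deeper control library. In these fits the lone library of a group was taken to vary like the other group. limma called 54 genes without the shallower control library, and 0 with each of the other libraries left out. Id1 after knockdown rests on 4 to 14 recovered reads a library, which limits its precision. Of the 18 genes most like the members, 10 remained among genes at or above percentile 75 of level. No paired analysis was possible because the table columns are group means and the recovered libraries carry no replicate number.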
